A study of Mus musculus with 18 samples.

Results

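The 35 genes described here are markers of microglia, the resident macrophages of the brain. They were taken by name from a fixed list and matched to the counts by Ensembl identifier. The rule uses no measured value, but the list was chosen with earlier results of these data known. All 35 were found among the 38561 genes counted, each under 1 identifier, and all 35 were among the 17545 genes that reached at least 10 counts in at least 1 library and were tested. mRNA-seq was run on the frontal cortex, striatum and hippocampus of adult Pcm1-/- mice and their WT littermates on a background given as C57 Bl6J, with 3 libraries per region and genotype, 18 in all. Pcm1 encodes a scaffold protein of centriolar satellites, and the Pcm1-/- mice are homozygous for a gene-trap allele made in embryonic stem cells and were back-crossed to C57BL/6J. The labels name no treatment for these animals. Animal numbers in the names of the deposited files place the 18 libraries on 6 animals, 3 of each genotype, each giving 1 library per region, and counts on Y-linked genes show 1 male among the 3 animals of each genotype. Library depth ran from 24950537 to 33405081 counts on genes, and the members held between 19 counts (Ltc4s) and 5227 counts (Csf1r) in a library. Levels are given as CPM, the reads of a gene relative to all reads on genes in a library, scaled over the 18 libraries by the trimmed mean of M values (TMM). Pcm1 itself, the check of the labels, lay between 119.9 and 171.7 CPM in the 9 WT libraries and between 11.8 and 17.6 CPM in the 9 Pcm1-/- libraries.

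A few libraries stood apart. The 3 libraries of 1 WT animal (replicate 1 of the frontal cortex, replicate 2 of the striatum and replicate 1 of the hippocampus) were the highest of the 6 libraries of their region for 33, 32 and 32 of the 35 members, so the main genotype differences are given below with and without it. Replicate 3 of the WT striatum summed to 6108 CPM over 8 choroid plexus markers, against 33.8 to 171.8 CPM in the other 5 striatal libraries, while the hippocampal libraries ranged from 229 to 6381 CPM. All 3 WT striatal libraries were run in lane 5 while the Pcm1-/- ones came from lanes 3 and 4, which leaves lane and genotype confounded there: they cannot be told apart. A fit over the 3 regions together, with a lane term, gives a striatal value only by taking the difference of lane 5 from the frontal cortex and hippocampus.

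Microglia enter the brain from the yolk sac early in development and then renew themselves locally, and they depend on signalling through the receptor Csf1r for survival. In the healthy brain they scan the tissue with motile processes, sense nucleotides through P2ry12, tag and clear synapses and debris with complement C1q, Trem2 and lysosomal proteases, and keep their identity through the transcription factors Spi1 (PU.1) and Irf8. Many of these genes are shared with other macrophages, but Tmem119, P2ry12, Fcrls, Siglech and Olfml3 are used as markers that set microglia apart from blood-derived cells.

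PU.1 binds a GAGGAAGT-like sequence, and the promoters of the members were searched for it to show what the list shares at the level of DNA. RefSeq promoters (GRCm38.p6, 250 bases before to 50 bases after the start) were matched for 27 of the 35 members. GAGGAAGT, read on both strands, was found in 6 of these 27 (C1qc, Ctss, Cd53, Hpgds, Cyth4 and Inpp5d), and in 3.69% of the 27025 genes with a promoter in the table. The shorter GGAAGT, which is contained in it, was found in 15 of 27 members and in 26.5% of all genes, and the Ets-IRF composite element, searched as GGAA, any 2 bases and GAAA, in 1 of 27 (Cd68) and in 3.16% of all genes. The 2 matches that lie before the annotated gene in both RefSeq and GENCODE are shown, with the match in capitals. The Inpp5d stretch is chr1:87620266-87620311 on the plus strand, and the C1qc stretch is chr4:136893076-136893135 on the minus strand, where the match is the reverse complement.
Inpp5d: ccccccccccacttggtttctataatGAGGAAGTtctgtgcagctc
C1qc: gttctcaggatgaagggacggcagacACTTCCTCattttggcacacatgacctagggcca
A match describes these letters only, and binding of PU.1 was not measured.

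Per kilobase of annotated exon, the members spanned a wide range of levels. Averaged over the 18 libraries, Ctss, the lysosomal protease cathepsin S, was highest at 74.5 CPM per kb, followed by the complement chains C1qa (62.7), C1qb (53.1) and C1qc (30.1), then P2ry12 (24.3), Csf1r (21.0) and Tyrobp (20.7 CPM per kb). The lowest were Ptprc (0.276), Cd33 (0.808), Irf8 (0.978) and Hpgds (1.03 CPM per kb). Cd68 held rank 11 of 35 over all libraries but rank 18 in the WT frontal cortex. Exon length was the union of GENCODE exons, so genes with long alternative exons are placed low on this scale.

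In the comparison of Pcm1-/- with WT mice the members lay lower in the mutants, by a small amount. No single member passed correction in edgeR's quasi-likelihood test. DESeq2 and edgeR's exact test called 3 to 8 members lower in the frontal cortex and striatum, with 0.598% to 1.71% of all genes. In the hippocampus both called 0 members, with 0.791% and 0.416% of all genes called lower. The log2 fold change was below 0 for 34 of 35 frontal cortical, 35 of 35 striatal and 32 of 35 hippocampal values, with medians of -0.30, -0.39 and -0.33, while the median over all 17545 genes was -0.0066 in the frontal cortex and closer to 0 in the other regions. The summed level of the 35 members was 918 ± 148 CPM (SD, n = 3) in the WT and 757 ± 58.9 CPM in the Pcm1-/- frontal cortex, 1367 ± 259 against 1035 ± 73.7 CPM in the striatum, and 1090.5 ± 285 against 884 ± 74.7 CPM in the hippocampus. The Pcm1-/- means were thus 82.5%, 75.8% and 81.0% of the WT means. In tissue RNA, fewer microglia and less RNA per microglial cell cannot be told apart.

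By library the sums were 1087, 812 and 854 CPM in the WT and 807, 692 and 773 CPM in the Pcm1-/- frontal cortex, which did not overlap. In the striatum they were 1346, 1635 and 1119 CPM against 1001, 985 and 1120.1 CPM, so the highest mutant library sat level with the lowest WT library. In the hippocampus they were 1409, 858 and 1004 CPM against 922, 798 and 931 CPM, and the groups overlapped. Without the WT animal that was high in all 3 regions, the Pcm1-/- means came to 90.9% (frontal cortex), 84.0% (striatum) and 94.9% (hippocampus) of WT. In the fits without it 33, 33 and 28 of 35 members were below 0, so the hippocampal members above 0 went from 3 to 7. At an unadjusted p under 0.05 there were then 6, 14 and 0 members lower and 0 higher, against 5.2%, 5.73% and 3.03% of all genes lower.

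**Figure D1:**
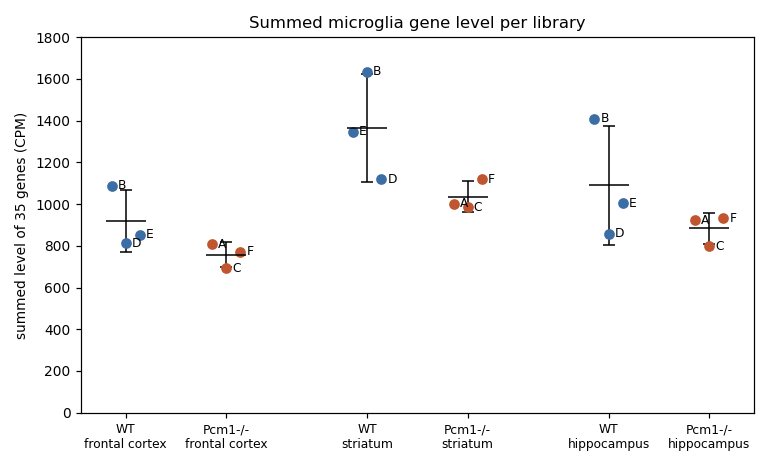
Summed level of the 35 microglia genes (CPM, vertical axis) in each of the 18 libraries, by region and genotype. Points are libraries, letters the 6 animals, and bars the mean and SD of 3 libraries. The WT animal lettered B is the highest of each region, at 1087, 1635 and 1409 CPM.

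In the frontal cortex no member passed an adjusted p of 0.05 in edgeR's quasi-likelihood test, where 1.41% of all genes were called higher and 0.336% lower. At an unadjusted p under 0.05, 18 of the 35 members were lower and 0 were higher, against 7.47% and 7.84% of all genes. Without WT replicates 1, 2 and 3 the lower members were 6, 22 and 23, against 5.2%, 7.15% and 10.5% of all genes. Without Pcm1-/- replicates 1, 2 and 3 they were 14, 6 and 11, against 4.27%, 6.11% and 5.28%. In 13 members all 3 Pcm1-/- libraries lay below all 3 WT libraries and in 0 members above, against 9.28% and 12.0% of all genes. The largest differences among those 13 were a log2 fold change of -0.62 (SE 0.14, adjusted p = 0.0713) for P2ry13, -0.55 (SE 0.15, adjusted p = 0.122) for Ly86 and -0.48 (SE 0.17, adjusted p = 0.236) for Spi1. P2ry12, with a smaller log2 fold change of -0.32 (SE 0.09, adjusted p = 0.119), had the next smallest p after P2ry13. DESeq2 called 5 members (P2ry13, P2ry12, Ly86, Selplg and Tmem119) and 1.64% of all genes lower. The exact test of edgeR called 3 members (P2ry13, P2ry12 and Ly86) and 1.33% of all genes lower. Leaving out WT replicate 1 took the median log2 fold change of the members from -0.30 to -0.16, leaving out WT replicate 3 gave 3 calls (P2ry13, Ly86 and Selplg) with 1.55% of all genes called lower, and lane as a term within the region gave a median of -0.15.

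In the striatum no member passed the same test, where 0.0228% of all genes were called higher and 0.00570% lower. At an unadjusted p under 0.05, 24 of 35 members were lower and 0 higher, against 6.98% and 6.54% of all genes. Without WT replicates 1, 2 and 3 the lower members were 20, 14 and 30, against 8.53%, 5.73% and 6.97% of all genes. Without Pcm1-/- replicates 1, 2 and 3 they were 13, 17 and 24, against 3.76%, 7.15% and 4.47%. The groups did not overlap for 19 members, all lower in the mutants, against 9.39% of all genes lower and 9.60% higher. The largest of these were Ptprc at a log2 fold change of -0.77 (SE 0.26, adjusted p = 0.266), Csf3r at -0.72 (SE 0.25, adjusted p = 0.278) and C1qa at -0.59 (SE 0.17, adjusted p = 0.209). The smallest p belonged to Selplg, at -0.55 (SE 0.09, adjusted p = 0.104). DESeq2 called 8 members (Selplg, P2ry12, P2ry13, Ly86, Tmem119, Fcgr3, C1qa and C1qb) and 1.71% of all genes lower. The exact test called 4 members (Selplg, P2ry12, Ly86 and C1qa) and 0.598% of all genes lower. The median moved from -0.39 to -0.25 without WT replicate 2, and to -0.47 with a lane term over the 18 libraries. That fit takes the difference of lane 5 from the frontal cortex and hippocampus, so it cannot separate lane from genotype in the striatum. With sex as a covariate 5 members (Selplg, P2ry12, Ly86, Fcgr3 and Cyth4) and 1.37% of all genes were called lower.

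In the hippocampus no member passed either, where 0.0114% of all genes were called higher and 0.00570% lower, and DESeq2 and the exact test also called 0 members, with 0.791% and 0.416% of all genes called lower. At an unadjusted p under 0.05, 5 of 35 members were lower (P2ry13, Selplg, Tmem119, Spi1 and Olfml3) and 0 higher, against 5.06% and 4.84% of all genes. Without WT replicates 1, 2 and 3 the lower members were 0, 22 and 6, against 3.03%, 7.67% and 4.62% of all genes. Without Pcm1-/- replicates 1, 2 and 3 they were 1, 2 and 1, against 2.78%, 4.33% and 5.26%. The groups did not overlap for 5 members, all lower (Fcer1g, Spi1, Olfml3, Cyth4 and Tmem119), against 6.46% of all genes lower and 10.6% higher. The largest of these were Fcer1g at a log2 fold change of -0.65 (SE 0.30, adjusted p = 0.522), Spi1 at -0.55 (SE 0.22, adjusted p = 0.489) and Olfml3 at -0.35 (SE 0.15, adjusted p = 0.497). Without WT replicate 1 the median over the members was -0.11 in place of -0.33. The 3 members above 0 were Fcrls, Gpr34 and Cd33, the largest at 0.04 on the log2 scale (Fcrls).

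**Figure D2:**
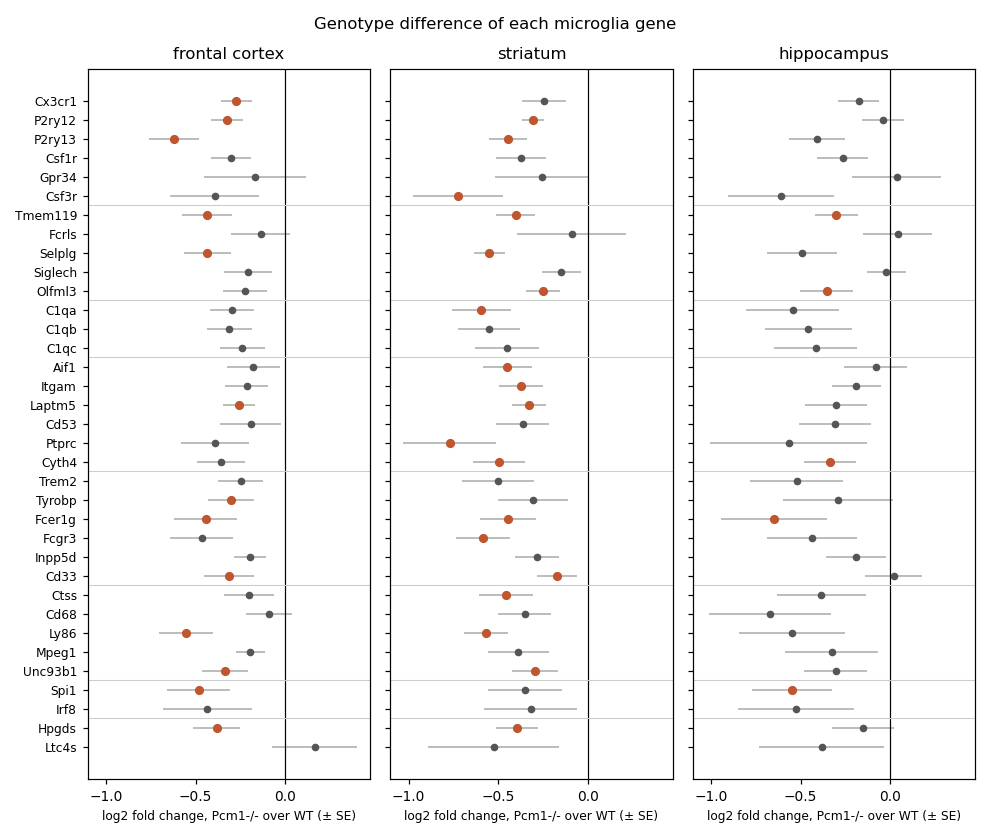
Log2 fold change of each of the 35 members, Pcm1-/- over WT (horizontal axis, with SE from edgeR's quasi-likelihood fit), in the 3 regions, grouped by role. Orange points are the 13, 19 and 5 members whose libraries did not overlap between genotypes, and nearly all points lie left of 0.

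Since each animal gave 3 libraries, counts were also summed per animal. All 35 members were then lower in the mutants, with a median log2 fold change of -0.34, and no member passed an adjusted p of 0.05, where 0.992% of all genes were called higher and 0.393% lower. At an unadjusted p under 0.05, 21 members were lower and 0 higher, against 8.49% and 8.76% of all genes. Leaving out Pcm1-/- animals 1, 2 and 3 gave 8, 9 and 17 lower members, against 4.47%, 7.37% and 7.72% of all genes. Leaving out the WT animals numbered 2 and 3 in the hippocampus gave 30 and 19, against 9.22% and 11.5%. The smallest p belonged to P2ry12 at -0.24 (SE 0.05, adjusted p = 0.0664), P2ry13 at -0.50 (SE 0.12, adjusted p = 0.089) and Selplg at -0.51 (SE 0.13, adjusted p = 0.0983). DESeq2 called 7 members (P2ry12, P2ry13, Selplg, Tmem119, Ly86, Fcgr3 and Cyth4) and 3.53% of all genes lower. Without the WT animal that was high in all regions, 33 of 35 members were lower, with a median of -0.18. Of these, 12 had an unadjusted p under 0.05 (5.35% of all genes, lower), and 0 were called. Leaving out the WT animal numbered 3 in the frontal cortex and hippocampus gave 2 calls (P2ry13 and Selplg) with 0.712% of all genes called lower. The test of genotype by region called 0 members in edgeR, where 0.0114% of all genes passed, and 0 in DESeq2, where 1.91% did. In edgeR 0 members had an unadjusted p under 0.05.

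**Figure D3:**
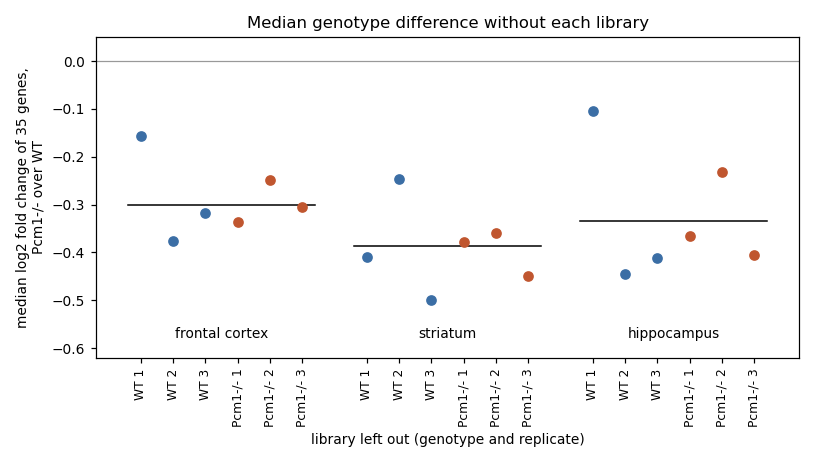
Median log2 fold change of the 35 members, Pcm1-/- over WT (vertical axis), after leaving out each library in turn (horizontal axis), in the 3 regions. Black lines mark the medians with all libraries, and the median stayed below 0 for each library left out, nearest to it without WT hippocampus replicate 1 at -0.11.

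The receptors hold the genes with which microglia read their surroundings. Csf1r stood at 139.6, 101 and 117 CPM in the WT and 103, 88.4 and 99.9 CPM in the Pcm1-/- frontal cortex, at 168, 188 and 126 against 119, 117 and 137 CPM in the striatum, and at 149, 101 and 120.0 against 107, 95.3 and 109 CPM in the hippocampus. In each region the genotypes overlapped, through the lowest WT library alone. Cx3cr1 (the receptor for neuronal fractalkine) lay at 86.5, 69.1 and 71.9 CPM in the WT and 65.6, 59.1 and 64.5 CPM in the Pcm1-/- frontal cortex, at 108, 116 and 84.2 against 85.7, 78.7 and 95.4 CPM in the striatum, and at 86.8, 68.3 and 75.7 against 73.1, 61.3 and 72.4 CPM in the hippocampus. Its groups were separate in the frontal cortex only, at a log2 fold change of -0.27 (SE 0.09, adjusted p = 0.181). P2ry12 (the ADP receptor that guides process extension) was found at 75.5, 60.4 and 64.2 CPM in the WT and 56.6, 49.7 and 54.3 CPM in the Pcm1-/- frontal cortex, at 76.7, 71.9 and 68.8 against 57.97, 57.5 and 60.4 CPM in the striatum, and at 62.6, 64.8 and 53.0 against 57.3, 68.4 and 52.1 CPM in the hippocampus. The mutants were lower in every library of the frontal cortex and the striatum, whereas the hippocampal groups were intermixed at a log2 fold change of -0.04 (SE 0.12).

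P2ry13 (another ADP receptor) was at 21.8, 17.6 and 14.6 CPM in the WT and 12.98, 11.5 and 10.8 CPM in the Pcm1-/- frontal cortex, at 20.2, 25.3 and 19.8 against 15.6, 16.1 and 16.2 CPM in the striatum, and at 20.6, 18.1 and 13.8 against 12.4, 14.7 and 12.9 CPM in the hippocampus. The groups were separate in the frontal cortex and striatum and overlapped by 1 library on each side in the hippocampus. Csf3r (the receptor for granulocyte colony-stimulating factor) was low, at 7.53, 4.72 and 3.61 CPM in the WT and 4.61, 3.98 and 3.55 CPM in the Pcm1-/- frontal cortex, at 7.98, 12.5 and 6.25 against 4.54, 5.98 and 5.61 CPM in the striatum, and at 10.8, 5.39 and 4.97 against 4.51, 4.49 and 5.03 CPM in the hippocampus. Its striatal groups were separate and the others overlapped. Gpr34, a lysophosphatidylserine receptor, ranged from 12.97 to 36.8 CPM over the 18 libraries and overlapped between genotypes in each region. P2ry12 and P2ry13 lie within the span of Med12l on the opposite strand, and the strand setting of the counting is not given in the sources used here. Csf1r overlaps Hmgxb3 and Gpr34 overlaps Cask, each on the opposite strand. Cx3cr1 overlaps 5 tested genes, among them Wdr48 on the opposite strand and Gorasp1 and Csrnp1 on its own. How reads in these overlaps were assigned is not given either, so the values of these members are uncertain to that extent. Med12l itself had log2 fold changes of -0.08, 0.06 and 0.02 in the 3 regions (adjusted p = 0.848, 0.826 and 0.944).

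**Figure D4:**
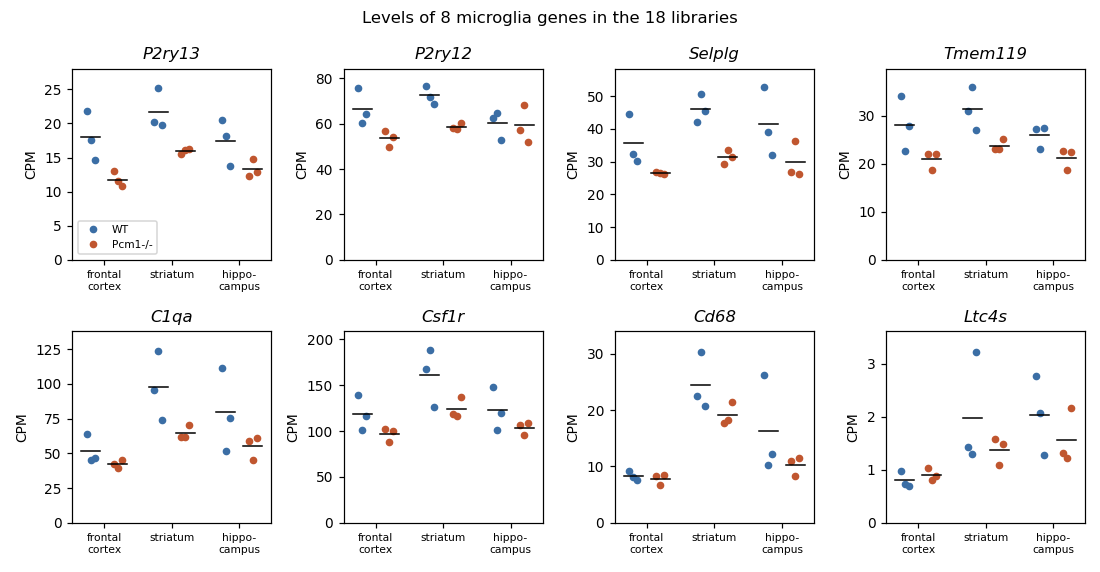
Levels (CPM, vertical axis, from 0) of 8 members in the 18 libraries, by region and genotype. Points are libraries and lines the means of 3. P2ry13, P2ry12, Selplg and Tmem119 are separate between genotypes in the frontal cortex and striatum, whereas Ltc4s overlaps in all 3 regions.

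Of the surface and secreted identity markers, Selplg (the ligand of P-selectin) stood at 44.5, 32.3 and 30.3 CPM in the WT and 26.7, 26.6 and 26.3 CPM in the Pcm1-/- frontal cortex, at 42.0, 50.5 and 45.6 against 29.4, 33.4 and 31.5 CPM in the striatum, and at 52.8, 39.2 and 32.1 against 26.8, 36.3 and 26.3 CPM in the hippocampus. Its mutant libraries lay below every WT library in the frontal cortex and striatum, and 1 mutant hippocampal library fell among the WT ones. Olfml3 (a secreted olfactomedin-like protein) was at 13.2, 10.01 and 10.4 CPM in the WT and 10.5, 8.74 and 9.73 CPM in the Pcm1-/- frontal cortex, at 15.3, 18.05 and 15.1 against 13.3, 13.5 and 13.9 CPM in the striatum, and at 19.9, 14.6 and 13.97 against 12.4, 12.8 and 13.2 CPM in the hippocampus. The groups were separate in the striatum and hippocampus. Tmem119, a membrane protein used to label microglia, was 28.2 ± 5.76 CPM in the WT and 21.0 ± 1.89 CPM in the Pcm1-/- frontal cortex, 31.4 ± 4.46 and 23.8 ± 1.26 CPM in the striatum, and 25.9 ± 2.47 and 21.3 ± 2.26 CPM in the hippocampus (SD, n = 3). Tmem119 and Fcer1g were the 2 of 35 members with every mutant library below every WT library in all 3 regions, which held for 0.422% of all genes. Every mutant library lay above in 0 members and 1.90% of all genes. Fcrls and Siglech ranged from 11.2 to 27.0 CPM and from 11.9 to 21.9 CPM and overlapped in each region.

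The 3 chains of complement C1q, which are made together into 1 protein and encoded side by side on chromosome 4, kept close ratios of reads. C1qa stood at 63.9, 45.1 and 46.8 CPM in the WT and 42.6, 39.7 and 45.1 CPM in the Pcm1-/- frontal cortex, at 95.5, 123 and 73.8 against 61.4, 61.9 and 70.4 CPM in the striatum, and at 112, 51.8 and 75.6 against 59.2, 45.5 and 61.1 CPM in the hippocampus. C1qb stood at 56.4, 38.9 and 47.2 CPM in the WT and 40.7, 35.02 and 39.8 CPM in the Pcm1-/- frontal cortex, at 87.0, 108 and 64.4 against 53.6, 55.6 and 67.5 CPM in the striatum, and at 91.9, 44.3 and 63.1 against 49.1, 42.3 and 55.4 CPM in the hippocampus. C1qa was separate between genotypes in the striatum, while C1qb overlapped there by 1 library on each side and both overlapped elsewhere. C1qc had log2 fold changes of -0.24 (SE 0.12), -0.45 (SE 0.18) and -0.42 (SE 0.23) in the frontal cortex, striatum and hippocampus. Over the 18 libraries the reads of C1qa stood at 0.991 to 1.22 times those of C1qb, and the reads of C1qc at 0.931 to 1.11 times those of C1qb, while the reads of C1qb themselves ran from 1009 to 2990.

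Genes of the leukocyte membrane and cytoskeleton showed their largest counts of lower members in the striatum, where 6 of 6 had an unadjusted p under 0.05 (6.98% of all genes, lower) and 5 of 6 did not overlap (9.39% of all genes, lower). Laptm5 (a lysosomal membrane protein) lay at 52.7, 43.0 and 43.1 CPM in the WT and 40.1, 36.3 and 40.2 CPM in the Pcm1-/- frontal cortex, at 66.0, 72.4 and 57.5 against 49.6, 49.9 and 56.4 CPM in the striatum, and at 72.0, 46.0 and 51.8 against 48.9, 40.2 and 50.1 CPM in the hippocampus. Cyth4 (an exchange factor for Arf proteins) stood at 10.2, 7.72 and 9.88 CPM in the WT and 7.90, 6.39 and 7.55 CPM in the Pcm1-/- frontal cortex, at 14.6, 16.8 and 11.7 against 10.1, 9.29 and 11.2 CPM in the striatum, and at 20.02, 14.01 and 15.1 against 13.5, 12.8 and 13.1 CPM in the hippocampus. Laptm5 was separate in the frontal cortex and striatum, and Cyth4 in the striatum and hippocampus. Cd53 (a tetraspanin) was at 10.6, 7.34 and 7.89 CPM in the WT and 8.37, 6.08 and 8.36 CPM in the Pcm1-/- frontal cortex, at 14.004, 16.1 and 11.3 against 9.89, 10.2 and 12.1 CPM in the striatum, and at 12.9, 8.20 and 10.4 against 8.52, 7.17 and 10.1 CPM in the hippocampus. Ptprc (CD45, a phosphatase of all leukocytes) was at 4.90, 3.995 and 2.91 CPM in the WT and 3.13, 2.87 and 3.06 CPM in the Pcm1-/- frontal cortex, at 7.31, 10.7 and 4.89 against 4.32, 4.36 and 4.74 CPM in the striatum, and at 10.4, 3.22 and 6.45 against 6.05, 2.64 and 4.94 CPM in the hippocampus. Cd53 overlapped in each region, and Ptprc was separate in the striatum alone. Aif1 (Iba1, an actin-binding protein) stood at 5.32, 4.07 and 4.203 CPM in the WT and 4.48, 3.71 and 3.90 CPM in the Pcm1-/- frontal cortex, at 6.58, 7.56 and 6.004 against 4.54, 5.09 and 5.10 CPM in the striatum, and at 5.198, 3.75 and 4.17 against 4.05, 4.07 and 4.43 CPM in the hippocampus. Its striatal groups were separate and the rest overlapped. Itgam, the integrin chain CD11b, ranged from 23.5 to 48.6 CPM and was separate in the striatum at a log2 fold change of -0.37 (SE 0.12).

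Trem2, a lipid receptor, signals through the adaptor Tyrobp, and Fcer1g is the matching adaptor of Fc receptors such as Fcgr3. Trem2 stood at 12.5, 9.97 and 10.9 CPM in the WT and 10.4, 7.998 and 9.87 CPM in the Pcm1-/- frontal cortex, at 19.8, 24.6 and 13.9 against 11.8, 13.4 and 15.9 CPM in the striatum, and at 19.7, 9.22 and 12.0 against 9.93, 8.77 and 10.1 CPM in the hippocampus. Its groups overlapped in each region, as did those of Tyrobp outside the frontal cortex. Fcer1g stood at 10.7, 6.77 and 6.89 CPM in the WT and 6.27, 5.81 and 5.97 CPM in the Pcm1-/- frontal cortex, at 10.5, 14.3 and 11.2 against 7.29, 9.71 and 9.44 CPM in the striatum, and at 18.8, 8.09 and 9.47 against 8.06, 7.59 and 7.78 CPM in the hippocampus. These were separate in all 3 regions, and the WT hippocampus held the highest library. Inpp5d (the phosphatase SHIP1, which opposes this signalling) lay at 19.3, 18.7 and 17.7 CPM in the WT and 17.9, 14.6 and 16.4 CPM in the Pcm1-/- frontal cortex, at 21.9, 23.5 and 18.7 against 15.9, 16.5 and 20.3 CPM in the striatum, and at 17.3, 10.98 and 14.9 against 13.2, 12.2 and 12.8 CPM in the hippocampus. The groups of Inpp5d overlapped in each region. Fcgr3 was separate between genotypes in the striatum, from 21.6 ± 4.39 CPM in the WT to 14.4 ± 1.60 CPM in the mutants (SD, n = 3), and Cd33, an inhibitory lectin, was 7.52 ± 0.380 against 6.67 ± 0.343 CPM there.

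Among the genes of lysosomes, phagocytosis and innate sensing, Ctss was the most abundant per kilobase, at 98.0, 75.9 and 65.7 CPM in the WT and 78.4, 62.1 and 69.3 CPM in the Pcm1-/- frontal cortex, at 122, 183 and 121 against 104, 101 and 106 CPM in the striatum, and at 168, 85.2 and 104 against 103, 73.6 and 101 CPM in the hippocampus. Its striatal groups alone were separate. Cd68 (macrosialin, a lysosomal membrane glycoprotein) stood at 9.24, 8.07 and 7.52 CPM in the WT and 8.34, 6.64 and 8.50 CPM in the Pcm1-/- frontal cortex, at 22.5, 30.3 and 20.7 against 17.8, 18.2 and 21.5 CPM in the striatum, and at 26.2, 10.3 and 12.2 against 10.95, 8.31 and 11.6 CPM in the hippocampus. The genotypes overlapped in each region. Ly86 (the partner of the Toll-like protein Cd180) lay at 13.2, 10.7 and 8.70 CPM in the WT and 8.12, 7.32 and 6.89 CPM in the Pcm1-/- frontal cortex, at 19.96, 26.8 and 20.002 against 14.8, 15.3 and 14.9 CPM in the striatum, and at 27.5, 12.4 and 12.97 against 12.7, 11.3 and 12.5 CPM in the hippocampus. Frontal cortex and striatum were separate here, and in the hippocampus 2 mutant libraries lay above the lowest WT library. Mpeg1 (a pore-forming protein of macrophages) was at 51.5, 43.6 and 45.1 CPM in the WT and 44.5, 39.1 and 39.5 CPM in the Pcm1-/- frontal cortex, at 74.6, 106 and 63.4 against 63.9, 57.5 and 65.2 CPM in the striatum, and at 82.3, 42.2 and 52.9 against 55.7, 35.4 and 51.7 CPM in the hippocampus. It overlapped in each region. Unc93b1 (the chaperone of nucleic acid-sensing Toll-like receptors) was at 19.6, 14.9 and 13.5 CPM in the WT and 13.1, 12.8 and 12.4 CPM in the Pcm1-/- frontal cortex, at 20.6, 27.1 and 19.2 against 17.9, 18.8 and 17.8 CPM in the striatum, and at 21.9, 14.4 and 17.5 against 16.4, 12.4 and 15.2 CPM in the hippocampus. Its groups were separate in the frontal cortex and the striatum.

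Spi1 (PU.1) and Irf8, the transcription factors of the list, had low read counts. Spi1 stood at 4.97, 4.03 and 3.32 CPM in the WT and 3.17, 3.09 and 2.60 CPM in the Pcm1-/- frontal cortex, at 5.51, 7.10 and 4.89 against 4.18, 3.79 and 5.75 CPM in the striatum, and at 6.78, 4.08 and 4.53 against 3.72, 3.82 and 3.14 CPM in the hippocampus. Irf8 stood at 7.63, 3.81 and 4.24 CPM in the WT and 3.82, 3.55 and 4.32 CPM in the Pcm1-/- frontal cortex, at 9.56, 15.5 and 7.26 against 8.36, 7.57 and 9.91 CPM in the striatum, and at 11.7, 5.24 and 5.81 against 5.62, 4.11 and 6.22 CPM in the hippocampus. Spi1 was separate in the frontal cortex and hippocampus, and Irf8 overlapped in each region. Of the 2 enzymes of eicosanoid synthesis, Hpgds (prostaglandin D synthase) stood at 7.74, 6.47 and 5.90 CPM in the WT and 5.64, 4.88 and 4.99 CPM in the Pcm1-/- frontal cortex, at 8.53, 9.87 and 9.18 against 6.82, 7.48 and 6.62 CPM in the striatum, and at 7.43, 5.21 and 5.54 against 5.52, 5.87 and 5.21 CPM in the hippocampus. The groups were separate in the frontal cortex and striatum. Ltc4s (leukotriene C4 synthase) had the lowest counts of the list, at 0.980, 0.723 and 0.701 CPM in the WT and 1.03, 0.803 and 0.878 CPM in the Pcm1-/- frontal cortex, at 1.43, 1.30 and 3.21 against 1.57, 1.082 and 1.48 CPM in the striatum, and at 2.77, 2.06 and 1.28 against 1.32, 1.22 and 2.15 CPM in the hippocampus. It was the 1 member above 0 in the frontal cortex, at a log2 fold change of 0.16 (SE 0.24), and its highest library was the WT striatum replicate with the choroid plexus markers.

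Regions were compared within each genotype, so WT and Pcm1-/- mice give separate estimates from different animals, whereas the contrasts within a genotype share libraries. In the striatum the members lay higher than in the frontal cortex in both genotypes. In WT mice 17 of 35 members were called higher in the striatum and 0 lower, against 20.6% and 20.9% of all genes, with a median log2 fold change of 0.56 against 0.02 over all genes. In Pcm1-/- mice 26 were called higher and 0 lower, against 27.2% and 27.1% of all genes, with a median of 0.49. The sign was the same in both genotypes for 35 of 35 members, and 15 members were called in both. With the animal as a block, 30 members were called higher in WT mice, where the same fit called 24.5% of all genes higher, and 30 in Pcm1-/- mice, where it called 28.4%. Leaving out single WT libraries took the WT count to as few as 1 (frontal cortex replicate 2) or 2 (striatum replicate 2 or frontal cortex replicate 3), and to 9 without striatum replicate 1, in fits that called 15.8% to 17.8% of all genes higher.

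Cd68 showed the largest difference, at a log2 fold change of 1.57 (SE 0.31, adjusted p = 0.00235) in WT and 1.30 (SE 0.14) in Pcm1-/- mice, with all striatal libraries above all cortical ones. Ly86 was next by p in WT and first in Pcm1-/- mice, at 1.04 (SE 0.29, adjusted p = 0.0159) in WT and 1.01 (SE 0.09, adjusted p = 2.94e-06) in Pcm1-/- mice. All 3 C1q chains were called higher, at 0.91 (SE 0.27, adjusted p = 0.0192) for C1qa, 0.87 (SE 0.26, adjusted p = 0.0209) for C1qb and 0.76 (SE 0.25, adjusted p = 0.0311) for C1qc in WT mice. Other WT members among the 10 smallest p were Cyth4 at 0.63 (SE 0.18), Cd53 at 0.68 (SE 0.20), Mpeg1 at 0.81 (SE 0.24), Olfml3 at 0.53 (SE 0.16), Aif1 at 0.57 (SE 0.17) and Ctss at 0.83 (SE 0.25). In Pcm1-/- mice Irf8 at 1.15 (SE 0.16, adjusted p = 0.000164), Cx3cr1 at 0.46 (SE 0.09, adjusted p = 0.000941), Unc93b1 at 0.52 (SE 0.10, adjusted p = 0.00103) and Laptm5 at 0.42 (SE 0.09, adjusted p = 0.00203) were also among them. Of the 5 surface and secreted identity markers, Olfml3 was called higher in both genotypes. Siglech was at 0.37 (SE 0.14, adjusted p = 0.0608) in WT and passed in Pcm1-/- mice at 0.42 (SE 0.10, adjusted p = 0.00434), and the test of genotype by region did not call it. Tmem119, Fcrls and Selplg, and with them the receptor P2ry12, did not pass in either genotype. P2ry12, Tmem119, Fcrls and Selplg were at 0.12, 0.16, -0.07 and 0.37 in WT mice and 0.13, 0.18, -0.03 and 0.25 in Pcm1-/- mice. The frontal cortex was the region of the lowest mean for 25 of 35 members in WT and 33 of 35 in Pcm1-/- mice, and the striatum that of the highest for 30 of 35 in each.

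**Figure D5:**
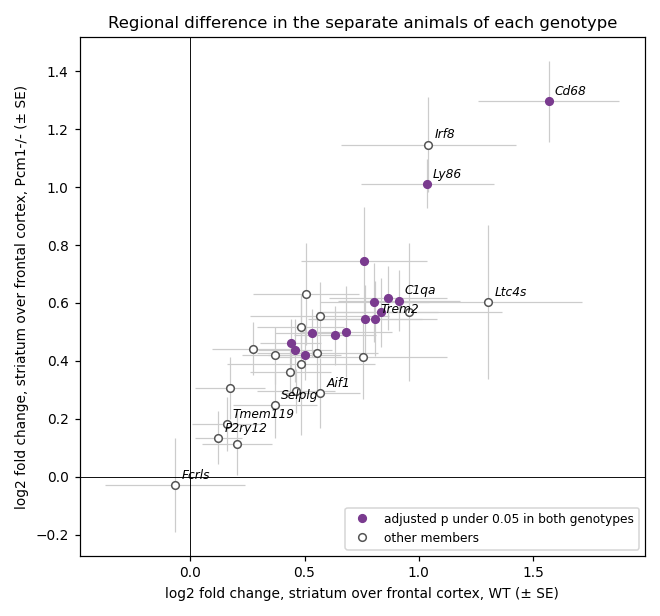
Log2 fold change of striatum over frontal cortex for the 35 members in WT (horizontal axis) and Pcm1-/- mice (vertical axis), with SE from edgeR. Filled points are the 15 members called in both genotypes. Cd68 lies at the upper right and Fcrls near 0.

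The hippocampus lay above the frontal cortex with medians of 0.29 in WT and 0.20 in Pcm1-/- mice. In WT mice 4 members were called higher and 0 lower (Cyth4, Olfml3, Ltc4s and Cd68), against 14.5% and 15.3% of all genes. These WT calls were no larger a share of the members than of all genes. In Pcm1-/- mice 10 were called higher and 1 lower, against 20.2% and 21.2%. Cyth4 had the smallest p in both, at a log2 fold change of 0.82 (SE 0.18, adjusted p = 0.00668) in WT and 0.85 (SE 0.10, adjusted p = 8.15e-05) in Pcm1-/- mice, and the 4 WT members were among the 10 of the Pcm1-/- mice. Ltc4s was at 1.33 (SE 0.41, adjusted p = 0.033) and 0.79 (SE 0.26, adjusted p = 0.0326). Ly86, C1qa, C1qb, Ctss, Fcer1g and Laptm5 were called in the Pcm1-/- mice, from 0.70 (SE 0.09, adjusted p = 8.73e-05) for Ly86 to 0.25 (SE 0.09, adjusted p = 0.0419) for Laptm5. Inpp5d was the member called lower, at -0.36 (SE 0.11, adjusted p = 0.0219), and was -0.37 (SE 0.15, adjusted p = 0.0974) in WT mice. With the animal as a block, 12 members were called higher and 1 lower in WT mice, against 17.9% and 19.1% of all genes, and 13 higher and 1 lower in Pcm1-/- mice, against 21.5% and 22.3%. In WT mice 2 members were called higher without frontal cortex replicate 1, 1 without frontal cortex replicate 2 or 3 or hippocampus replicate 1, and 8 without hippocampus replicate 2, in fits that called 9.99% to 14.3% of all genes higher. The fit without hippocampus replicate 1 also called 1 member lower, with 12.5% of all genes, and the other fits 0. In Pcm1-/- mice 6, 3 and 4 were called higher without frontal cortex replicates 1, 2 and 3, and 4, 16 and 3 without hippocampus replicates 1, 2 and 3, in fits that called 15.7% to 22.3% of all genes higher. Of these fits, 4 also called 1 member lower (without frontal cortex replicate 2 or a hippocampus replicate), with 17.8% to 23.7% of all genes called lower.

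Against the striatum the hippocampus had medians of -0.35 in WT and -0.24 in Pcm1-/- mice. In WT mice 0 members were called higher and 4 lower (Inpp5d, Hpgds, Aif1 and Cx3cr1), against 14.8% and 14.4% of all genes. Here too the WT calls were no larger a share of the members than of all genes. In Pcm1-/- mice 1 was called higher and 11 lower, against 23.1% and 21.9%. Cx3cr1, Hpgds and Inpp5d were called lower in both, at -0.42 (SE 0.13, adjusted p = 0.0376), -0.61 (SE 0.16, adjusted p = 0.0172) and -0.58 (SE 0.15, adjusted p = 0.0169) in WT mice. Cd68 was lowest in the Pcm1-/- mice at -0.90 (SE 0.14, adjusted p = 0.000304), and Irf8 at -0.70 (SE 0.16), Trem2 at -0.52 (SE 0.13) and Ly86 at -0.31 (SE 0.08) were also called. Cyth4 was the member called higher, at 0.36 (SE 0.10, adjusted p = 0.0138), and was 0.18 in WT mice. With the animal as a block, 21 members were called lower and 0 higher in WT mice, where 17.9% of all genes were called lower, and 20 lower and 1 higher in Pcm1-/- mice, against 23.2% and 24.0%. Without striatum replicate 2, 0 members were called in WT mice, 1 was called lower without striatum replicate 1 or hippocampus replicate 2 or 3, and 11 were called lower without hippocampus replicate 1. Those fits called 11% to 13.4% of all genes lower. In Pcm1-/- mice 6 were called lower and 1 higher without striatum replicate 3, against 17.8% and 20.7% of all genes.

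Markers of other cells differed between the regions as well. All 10 oligodendrocyte markers were called higher in the striatum than in the frontal cortex in both genotypes, against 20.6% of all genes in WT and 27.2% in Pcm1-/- mice. Their median log2 fold changes were 2.07 in WT and 1.89 in Pcm1-/- mice. They were also all called higher in the hippocampus than in the frontal cortex, with medians of 1.75 and 1.45, against 14.5% and 20.2% of all genes. Against the striatum all 10 were below 0 in the hippocampus, with medians of -0.33 and -0.46. Of these, 1 and 4 were called lower, against 14.4% and 21.9% of all genes. In WT mice they summed to 2038 to 2707 CPM in the frontal cortex, 9808 to 9990 CPM in the striatum and 5179 to 10273 CPM in the hippocampus. The oligodendrocyte markers thus had the same order of regions as the microglia genes, by their medians. Of 12 neuronal markers 8 were called lower and 2 higher in the striatum than in the frontal cortex in each genotype, with medians of -0.59 and -0.82. Of all genes, 20.9% were called lower and 20.6% higher in WT mice, and 27.1% and 27.2% in Pcm1-/- mice. The 8 choroid plexus markers had medians of 5.27 and 1.88 in that comparison, with 6 and 3 called higher, against 20.6% and 27.2% of all genes. The WT striatal libraries were uneven, at sums of 54.3, 57.1 and 6108 CPM. In the hippocampus 8 of 8 were called higher than in the frontal cortex in both genotypes, against 14.5% and 20.2% of all genes. Border macrophage markers were lower in the striatum than in the frontal cortex by their medians, at -1.01 and -1.24. Of 12, 2 and 4 were called lower, against 20.9% and 27.1% of all genes. In each genotype 1 was called higher, against 20.6% and 27.2%. The part of these differences in the regional levels of the microglia genes was not tested.

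Other genes of the same biology were read from lists beside the members. Of 18 ligands and regulators of microglia, made largely by other cells, 0 were called between genotypes, with frontal cortical, striatal and hippocampal medians of -0.01, -0.16 and -0.0030. Of 44 further microglia-enriched genes 38, 39 and 41 were below 0 in the same order of regions, with medians of -0.20, -0.34 and -0.28 and 0 called. Of 24 genes of disease-associated microglia 14, 22 and 22 were below 0, and 1 was called, Fth1, a ferritin chain made by many cells. It was lower in the frontal cortex at a log2 fold change of -0.40 (SE 0.08, adjusted p = 0.0486), where 0.336% of all genes were called lower. In the sums per animal it was lower at -0.51 (SE 0.09, adjusted p = 0.0480), with 0.393% of all genes. The 15 genes that signal below Trem2 and Csf1r had 14, 14 and 13 members below 0 and 0 called, the 14 tested complement genes 10, 13 and 12, and the 14 tested cytokine and activation genes 11, 11 and 12, each with 0 called.

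Markers of other cells were read in the same genotype fits. The 12 border macrophage markers were below 0 in 10, 12 and 12 cases, with medians of -0.32, -0.61 and -0.85 in the 3 regions taken in the same order. They summed to 17.2 to 36.4 CPM over the WT and 12.7 to 27.6 CPM over the Pcm1-/- libraries, with none under 10 counts in every library. Monocyte and neutrophil markers summed to at most 3.504 CPM, with 7 of 12 (Ly6c2, Plac8, Camp, Retnlg, Ltf, Cd177 and Chil3) under 10 counts in every library. Globin and Alas2, from residual blood, were lower in all 5 tested genes, with medians of -1.22, -1.02 and -1.54 and sums of 71.8 to 226.7 CPM in the WT against 33.3 to 92.2 CPM in the Pcm1-/- libraries. All 10 oligodendrocyte markers were below 0 in each region, with medians of -0.22, -0.40 and -0.56 and sums of 2038 to 10273 CPM in WT and 1828 to 9628 CPM in Pcm1-/- libraries. Of the 12 endothelial and mural markers 11, 10 and 11 were below 0, with medians of -0.32, -0.20 and -0.40 and sums of 356 to 498 CPM in WT and 295 to 376 CPM in Pcm1-/- libraries. Astrocyte medians were -0.13, -0.11 and -0.18 and neuronal medians 0.01, -0.03 and -0.01. In the sums over regions 3 of 10 oligodendrocyte genes were called lower (Mag, Ermn and Ugt8a), against 0.393% of all genes and 0 of the 35 members. In the frontal cortex, where 0.336% of all genes were called lower, so were Acta2, an actin of mural cells, at a log2 fold change of -1.16, and 2 of 7 lymphocyte genes, the immunoglobulin genes Igkc at -2.28 and Jchain at -1.80. The neuronal genes Syt1 and Slc17a7 were called higher there, with 1.41% of all genes. Slc17a7 was also called higher in the sums, with 0.992% of all genes. The 7 tested lymphocyte markers had medians of -0.62, -0.67 and 0.37, the 8 choroid plexus markers -0.33, -3.48 and -0.58, and the 7 meningeal fibroblast markers -0.48, -0.41 and -0.57. The choroid plexus markers summed to 54.3, 57.1 and 6108 CPM in the WT and 42.3, 171.8 and 33.8 CPM in the Pcm1-/- striatum. Only WT replicate 3 thus lay above every mutant striatal library. The part of these differences in the lower level of the microglia genes was not tested.

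Lanes 4 and 5 held both genotypes of the frontal cortex, and lanes 3 and 5 those of the hippocampus. In the frontal cortex 18 of 35 members were lower in the mutant in lane 4 (1 WT and 1 Pcm1-/- library, median log2 ratio -0.03) and 31 in lane 5 (1 and 2 libraries, -0.20). In the hippocampus 34 were lower in lane 3 (1 and 2 libraries, -0.72) and 27 in lane 5 (1 and 1, -0.08). In lane 4 of the frontal cortex the members were thus divided nearly evenly. The lane 3 libraries of the WT were those of the animal that was high in all 3 regions, whose striatal library was run in lane 5 and was also the highest. The fits with a lane term, given above for the frontal cortex and the striatum, gave a median of -0.37 in the hippocampus over the 18 libraries and -0.46 within the region.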

How the data were processed

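Gene counts of 18 libraries were deposited by the authors as whole-number read counts per Ensembl gene. Per the study's methods, RNA was made into KAPA stranded mRNA-seq libraries, reads were trimmed with Trim Galore and Cutadapt (at least 20 nt kept), aligned with STAR to GRCm38 (release 73) at single locations, and counted with HTSeq. Tool versions and the strand setting are not given in the sources used here. Rows that name no gene (10.8% to 13.2% of a library) were left out. Names, positions and exon lengths came from GENCODE M21 (same build, other release).

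Genes that reached 10 counts in any library were tested with edgeR 4.0.16 (R 4.3.3) by the quasi-likelihood test with TMM factors, adjusted over all 17545 genes by Benjamini-Hochberg. The code was tested on simulated data. DESeq2 1.42.0, limma 3.58.1, other factors, filters, blocks, lane, sex and leaving out libraries were alternatives. Members and lists were chosen with earlier results of these data known. Members named in full had an adjusted p under 0.05 (at most 10 per comparison) or, where fewer than 3 passed, were the 3 largest changes among those without overlap, and their 18 levels are printed, as are those of the most abundant member of each role. Each p-value of a genotype comparison measures the spread between 3 animals per genotype, by region or summed. The regional tests used the 9 libraries of a genotype, and the test of genotype by region all 18, without an animal term. They thus treat the 3 libraries of an animal as independent. CPM precision is limited by the 3 libraries of a group.

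Replicate numbers are shared between genotypes, whose animals differ, so the numbers were not taken to pair them. Same-numbered libraries correlated (deviations from group means) at 0.0428 to 0.260 in the frontal cortex, -0.269 to 0.178 in the striatum and 0.0955 to 0.507 in the hippocampus. Their means were above those of differently numbered libraries in the frontal cortex (0.167 against -0.0833) and hippocampus (0.265 against -0.130). In the striatum the mean was below (-0.0823 against 0.0444). Calls with a replicate block are given below. Between regions, libraries of 1 animal correlated at 0.0801 to 0.386 in WT and 0.110 to 0.318 in Pcm1-/- mice, and the pairing there comes from the animal numbers in file names, which the replicate numbers do not follow in the WT striatum. No 2 replicates agreed within sampling noise (chi-square per degree of freedom at least 6.37).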

Additional observations from a re-analysis of the deposited data

How the results depend on the processing

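Of the recomputed counts, medians and sums, 192 stayed within the spread or within 1.5 times the value given, and 49 moved. For members called between genotypes, 0 in each region and in the sums, DESeq2 gave 5, 8 and 7 in the frontal cortex, striatum and sums, edgeR's exact test 3 and 4 for the first pair, a filter of 1 count 1 in each of these (with 0.617% and 0.0979% of all genes called lower), sex as a covariate 5 in the striatum (1.37% lower), and an unadjusted p under 0.05 gave 18, 24 and 5 in the 3 regions. The replicate block by title number gave 5 in the frontal cortex (Csf1r, Ly86, P2ry12, P2ry13 and Tmem119, with 1.35% of all genes called lower), and 0 in the striatum and hippocampus. No alternative called a member higher in the mutants. Leaving out single libraries gave 0 to 3 in the frontal cortex and 0 in the other 2 regions, and leaving out animals 0 to 2 in the sums. The cause of these differences was not tested. The medians and summed levels kept their direction under all alternatives run, with leave-one-out ranges of -0.38 to -0.16, -0.50 to -0.25 and -0.45 to -0.11 in the frontal cortex, striatum and hippocampus.

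For regions, with striatum over frontal cortex, hippocampus over frontal cortex and hippocampus over striatum in that order, the counts in WT mice of 17, 4 and 4 were 30, 13 and 21 with a replicate block by animal and 27, 8 and 11 with lane as a factor, where 18.1% and 15.9% of all genes were called higher and 12.8% lower. The fit of all 18 libraries gave 8 for each comparison with the hippocampus. For hippocampus over frontal cortex these were 7 higher and 1 lower, against 18.4% and 19.4% of all genes, and for hippocampus over striatum 8 lower, against 17.7%. The 6 libraries of the compared regions alone gave 2 for hippocampus over striatum, both lower, against 11.3%. Leaving out single libraries gave 1 to 21, 1 to 8 and 0 to 11, in fits that called 15.8% to 21.6% and 9.99% to 15.1% of all genes higher and 11% to 13.9% lower. In Pcm1-/- mice the counts of 26, 11 and 12 ranged from 22 to 28, 4 to 17 and 7 to 14 when single libraries were left out. By direction these were 22 to 28 higher, 3 to 16 higher and 6 to 13 lower, against 22.9% to 29.9%, 15.7% to 22.3% and 17.8% to 22.8% of all genes, with at most 1 member the other way in the comparisons with the hippocampus. The fit of all 18 libraries gave 3 for each comparison with the hippocampus, higher than in the frontal cortex and lower than in the striatum, against 18.9% and 19.4% of all genes. For hippocampus over striatum the replicate block gave 21, 20 lower and 1 higher, by title number as by animal, against 23.2% and 24.0% of all genes. Lane as a factor gave 3 for it, 2 lower and 1 higher, against 16.3% and 18.1%. The block by title number changed no other count of region calls by over 1.5 times. For low members such as Ltc4s, with as few as 19 counts in a library, counting error adds to the spread between animals.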
